A study of Mus musculus with 2 samples.

Results

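The genes described here are 10 genes of early kidney development, namely the transcription factor genes Osr1, Lhx1, Pax2, Pax8, Six2, Sall1 and Wt1, the transcriptional co-activator and phosphatase gene Eya1, the receptor gene Ret, and Greb1l, which encodes a co-activator of retinoic acid signalling. They were taken by symbol from the FPKM values (fragments per kilobase, relative to the fragments of the library) of differentiating mouse ESCs, and all 10 were among the 24354 genes listed. Poly(A) RNA was sequenced from 1 culture of control cells (Diff–CONT) and 1 culture of inducible Ino80 knockout cells (Diff–iKO). Each condition thus had 1 library, no difference below has a replicate check, and no p-value is given. Per the study's methods, the control ESCs came from Ino80 2f/2f blastocysts and the knockout ESCs from Ino80 2f/2f;ROSA26-CreER blastocysts, so both lines carry the floxed Ino80 allele, while the labels call the control wild type. Both were grown as EBs in medium with 8% KSR, moved to gelatin on day 4, and later kept for 7 days in medium with 15% FBS, BMP4 and 0.5 µM 4-OHTM. The drug activates CreER, which in the knockout line is made from the ubiquitous ROSA26 locus, and it was given to both lines, so the control lacks CreER but not the drug.

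The kidney arises from intermediate mesoderm, where Osr1, Lhx1, Pax2 and Pax8 act first. Six2, Eya1, Sall1 and Wt1 then maintain or pattern the nephron progenitors that surround the ureteric bud, and these secrete GDNF. The bud carries the receptor tyrosine kinase RET, which binds GDNF together with a GFRA co-receptor and drives branching. Most of these genes also work elsewhere in the embryo. Lhx1 acts in the primitive streak and the anterior endoderm, Wt1 in mesothelium and gonad, Pax2 and Pax8 in the hindbrain and ear, Pax8 in the thyroid, Sall1 in ESCs and limb, and Ret in enteric neural crest.

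The FPKM of Ino80, the targeted gene, was 8.90 in Diff–CONT and 10.3 in the culture labelled Diff–iKO, so it was not lower there, and a value over the whole gene does not resolve the floxed exons. Xist was 0.0639 and 3.59, and Uty, Kdm5d, Eif2s3y and Ddx3y, which are Y-linked, were 2.15- to 6.24-fold lower in Diff–iKO, so the libraries also differed in sex-chromosome transcripts. The part of this in the results below was not tested. Directions are therefore those of the library labelled Diff–iKO, written Diff–iKO below, against Diff–CONT. Depth was recovered from steps in the low FPKM values, as about 27462484 fragments in Diff–CONT and 21372374 in Diff–iKO over 19760 genes. The fragments of each gene gave a 95% interval, exact Poisson for a level and exact Clopper-Pearson for a log2 ratio. These intervals hold only the error of counting, and cultures may differ by more. Scaling both libraries to the same FPKM sum would lower every log2 ratio by 0.09 and setting their upper quartiles equal by 0.06, so log2 ratios that near to 0 or to the cut-off can change side with the scaling.

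Of the 10 genes, Lhx1, Greb1l and Eya1 were lower and Ret was higher past the cut-off, a fold change (FC) of at least 2 with FPKM of at least 2 in at least 1 library. The fold and the minimum are those of the study, and applying the minimum to either library is a choice made here. Lhx1 was 16.0-fold, Greb1l 7.07-fold and Eya1 2.98-fold lower in the library labelled Diff–iKO, and Ret was 2.08-fold higher. Osr1, Sall1 and Wt1 reached the FPKM minimum without passing the FC, and Pax2, Pax8 and Six2 stayed below the minimum in both libraries. Of the 7 genes that reached the minimum, 3 were thus lower and 1 was higher. Among all 12376 genes that reached it, 8.39% were lower and 6.73% higher, or 15.1% in either direction. The median log2 ratio of FPKM + 0.1 over the 9 members whose mean FPKM reached 1 was -0.41, against -0.01 over all 13145 such genes.

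**Figure D1:**
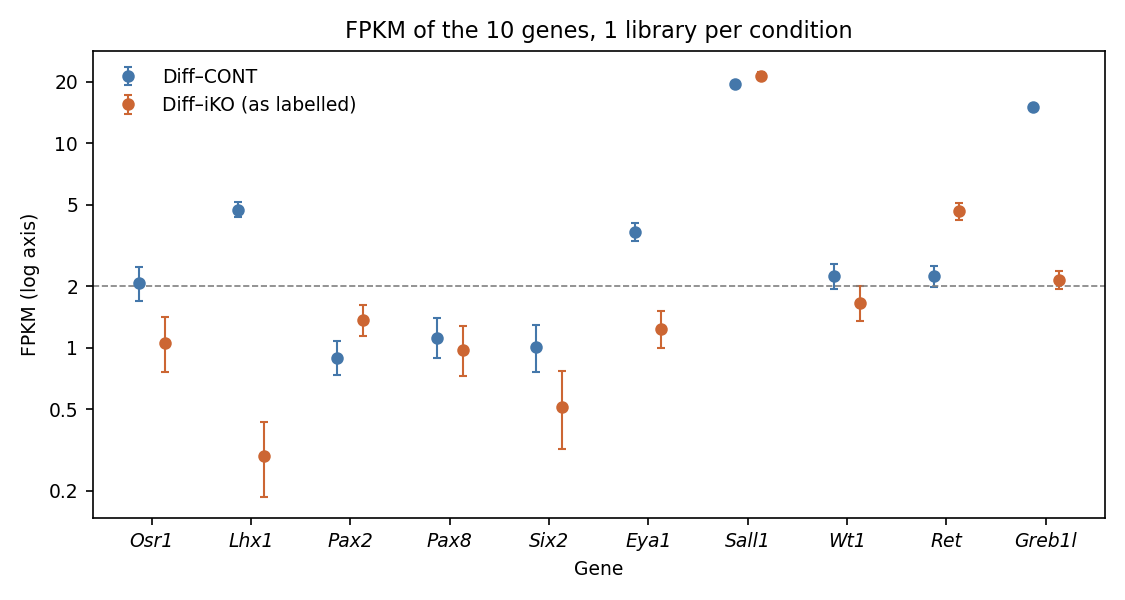
FPKM (log axis) of the 10 genes in the Diff–CONT library (blue) and the library labelled Diff–iKO (orange), 1 library each, with exact 95% Poisson intervals of the recovered fragments as bars and the FPKM minimum of 2 as a dashed line. Lhx1, Eya1 and Greb1l lie lower and Ret higher in Diff–iKO, Sall1 is the highest gene in both libraries, and the bars of Pax8, Wt1 and Six2 overlap between the libraries.

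Promoters were available for 5 of the 10 genes, namely Lhx1, Six2, Sall1, Pax2 and Pax8, as 9 windows from 250 bases before to 50 bases after a start site (RefSeq, GRCm38.p6). The Lhx1 window and the Sall1 window with the most CpG are shown 5′ to 3′ because Lhx1 had the largest fall of the 10 genes and Sall1 the highest level in both libraries. Both lie on the minus strand, Lhx1 at chr11:84525485-84525784 and Sall1 at chr8:89042813-89043112, and capitals mark every CpG.
Lhx1: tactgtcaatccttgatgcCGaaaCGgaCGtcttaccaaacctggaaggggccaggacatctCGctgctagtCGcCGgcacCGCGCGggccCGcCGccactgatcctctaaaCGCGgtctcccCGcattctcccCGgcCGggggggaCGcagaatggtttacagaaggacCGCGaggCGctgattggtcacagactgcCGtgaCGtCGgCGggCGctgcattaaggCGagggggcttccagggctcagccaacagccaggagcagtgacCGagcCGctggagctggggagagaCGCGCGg
Sall1: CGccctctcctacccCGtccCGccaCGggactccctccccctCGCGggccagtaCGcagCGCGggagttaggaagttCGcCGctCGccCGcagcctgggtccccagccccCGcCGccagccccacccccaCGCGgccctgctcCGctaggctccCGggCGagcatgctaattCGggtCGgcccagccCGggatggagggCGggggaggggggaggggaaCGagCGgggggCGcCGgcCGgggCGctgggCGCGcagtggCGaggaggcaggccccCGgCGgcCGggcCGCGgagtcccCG
The Lhx1 window held 31 CpG and the Sall1 window 39, at percentiles 89.4 and 95.6 of all 32851 promoter windows, whose median was 7. The other Sall1 windows held 27 and 18, the Six2 window 37, the Pax2 windows 7, 23 and 30, and the Pax8 window 7. A CpG-rich window was found both for the gene with the largest fall and for the gene with the highest, nearly level value. For Sall1 it was picked for its CpG. The Sall1 window at the annotated 5′ end of the gene was the one with 18, at percentile 70.3. Letters bound by YY1, a subunit of the INO80 complex (GCCATNTT, both strands), were in 0 of the 9 windows and in 6.05% of all windows. The ETS letters CCGGAA were in 1 of the 9, a Pax2 window, and in 14.9% of all. The letters TCAGGTT, bound by proteins of the Six2 family, were in 0 of the 9 and in 4.07% of all. The letters GCGTGGG, bound by WT1, were in 1 of the 9, a Sall1 window, and in 5.04% of all. The retinoic acid receptor half-site AGGTCA, the TATA letters TATAAA and the E2F letters TTTCCCGC were in 0 of the 9, and in 16.3%, 13.6% and 1.07% of all. CpG-rich windows differ in these shares, and 6 of the 9 held at least 20 CpG, the upper quartile of all windows. Among all windows at or above that quartile the shares were 30.5% for the ETS letters, 8.22% for YY1, 2.25% for TCAGGTT, 11.7% for GCGTGGG, 8.50% for the half-site, 3.67% for TATA and 2.67% for E2F. Both strands were read for each. A match or its absence describes these letters in these windows and nothing else.

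Among the members of intermediate mesoderm, namely Osr1, Lhx1, Pax2 and Pax8, Lhx1 had the largest difference. Lhx1 encodes a LIM homeodomain factor and lies on chromosome 11 from 84518284 to 84525535 (GRCm38, the mm10 build). Its FPKM was 4.74 in Diff–CONT and 0.296 in Diff–iKO, from about 522 and 24 fragments. The log2 ratio was -4.00 (interval -4.68 to -3.43), the 46th lowest of the 12376 genes. Lhx1os, a non-coding gene 125 bp from Lhx1, had an FPKM of 1.83 and 0.405 and stayed under the FPKM minimum. The protein-coding neighbour Aatf, 4762 bp away, was 16.0 and 18.6 (log2 ratio 0.22) and thus did not pass the FC.

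Osr1, a zinc finger gene that marks the earliest intermediate mesoderm and lies on chromosome 12 from 9570116 to 9581500, gave 2.06 in Diff–CONT and 1.05 in Diff–iKO. Its log2 ratio of -0.97 (interval -1.52 to -0.46) lay just short of the cut-off, and became -1.07, past it, when both libraries were scaled to the same FPKM sum. Pax2 and Pax8 encode closely related paired-box factors that act redundantly in the nephric lineage. Pax2, on chromosome 19 from 44756045 to 44837871, gave 0.891 and 1.37. Its log2 ratio was 0.62 (interval 0.24 to 0.99), in the opposite direction to Lhx1. Pax8, on chromosome 2 from 24420560 to 24475599, had values of 1.12 and 0.973. The interval of its ratio, -0.73 to 0.32 around -0.20, included 0. It was the only 1 of the 10 genes whose interval did so. The share over all genes was not computed and the intervals hold counting error only, so this count is not a result about the members.

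Among the genes of nephron progenitors, Eya1 was lower in Diff–iKO. Eya1 acts with proteins of the Six2 family upstream of Gdnf and lies on chromosome 1 from 14168954 to 14310235. The FPKM of Eya1 was 3.69 in Diff–CONT and 1.24 in Diff–iKO, and the log2 ratio was -1.58 (interval -1.93 to -1.24). Six2, which keeps nephron progenitors from differentiating and lies on chromosome 17 from 85684277 to 85688274, was low, at 1.01 and 0.510. Its log2 ratio of -0.98 (interval -1.76 to -0.25) rests on about 58 and 22 fragments. Wt1, the Wilms tumour zinc finger gene on chromosome 2 from 105126529 to 105173616, was 2.23 and 1.66, with a log2 ratio of -0.43 (interval -0.78 to -0.09). Sall1, a zinc finger gene on chromosome 8 from 89027235 to 89044162, was highest, at 19.5 and 21.5. The log2 ratio of Sall1, 0.14, lay above 0 by more than the error of counting (interval 0.06 to 0.21) but far from the cut-off. It was 0.04, outside that interval, with both libraries scaled to the same sum.

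Greb1l, on chromosome 18 from 10325177 to 10562940, fell from an FPKM of 15.1 to 2.14, about 3758 and 397 fragments. The log2 ratio of -2.82 (interval -2.98 to -2.67) was the 99th lowest of all genes that reached the minimum. Ret, on chromosome 6 from 118151745 to 118197718, rose from 2.23 to 4.64, about 290 and 450 fragments. The interval around its log2 ratio of 1.05 ran from 0.84 to 1.27, on both sides of the cut-off of 1. The ratio was 0.96 with both libraries scaled to the same sum, 0.99 with their upper quartiles equal and 0.80 with a pseudocount of 1, so the call of Ret was lost under each of these settings.

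FPKM is a value per length, so the levels of the 10 genes can be ordered within a library. In Diff–CONT the order was Sall1, Greb1l, Lhx1, Eya1, Wt1, Ret, Osr1, Pax8, Six2 and Pax2. The intervals of Wt1 and Ret, of Ret and Osr1, of Pax8 and Six2, and of Six2 and Pax2 overlapped, so these neighbours were not separated by counting. In Diff–iKO the order was Sall1, Ret, Greb1l, Wt1, Pax2, Eya1, Osr1, Pax8, Six2 and Lhx1, and the only neighbours whose intervals were apart were Sall1 and Ret, and Ret and Greb1l. Lhx1 thus went from the 3rd to the 10th level and Ret from the 6th to the 2nd. Sall1 alone made up 37.1% of the summed FPKM of the 10 genes in Diff–CONT and 60.7% in Diff–iKO. The sum was 52.6 and 35.3.

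Paralogues of the members were compared next, since proteins of these families can act in place of each other. Of 27 paralogues, 14 reached the FPKM minimum, 0 were higher and 6 were lower past the cut-off, or 42.9% of the 14 beside 8.39% of all genes lower. Greb1, which encodes an oestrogen-induced protein related to GREB1L, fell from 18.2 to 3.07. Its log2 ratio of -2.57 (interval -2.72 to -2.42) was close to the -2.82 of Greb1l, and the intervals overlapped. Eya2 fell with Eya1, from 3.30 to 0.850 (log2 ratio -1.96, interval -2.47 to -1.48). Eya3 was 16.1 and 18.0 and Eya4 was 2.34 and 2.36, so only 1 pair of the family passed the cut-off. Lhx2, a factor of forebrain and eye, fell from 4.58 to 0.575 (log2 ratio -2.99).

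In the family of Six2 the neighbouring gene of Six2, Six3, was 3.75 and 4.42, while Six6, a gene of the eye field, fell from 3.65 to 1.46 and Six5 from 9.53 to 3.91. Sall4, which works with pluripotency factors in ESCs, was 27.5 and 28.6 (log2 ratio 0.05, interval -0.04 to 0.15), whereas Sall2 fell from 25.2 to 11.2 (log2 ratio -1.17, interval -1.27 to -1.07). Of the other PAX genes, Pax3 (4.09 and 3.46) and Pax6 (2.76 and 2.56) reached the minimum and neither passed the FC.

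**Figure D2:**
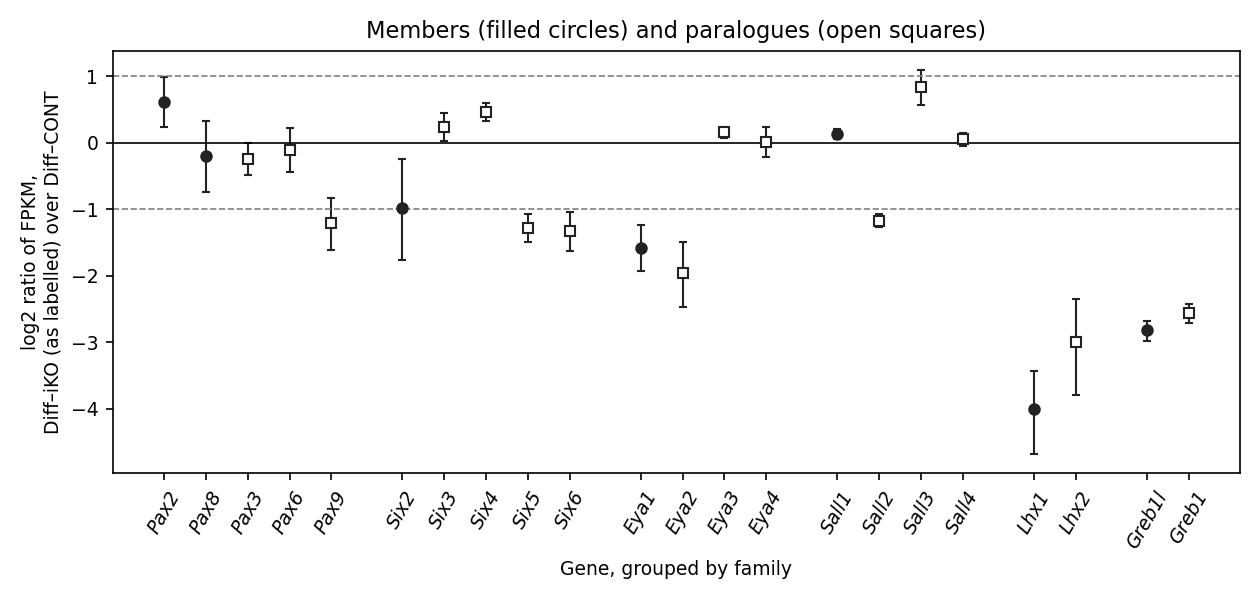
The log2 ratio of FPKM, Diff–iKO (as labelled) over Diff–CONT, for members (filled circles) and paralogues whose mean FPKM reached 1 (open squares, not all of them drawn), with exact 95% counting intervals as bars and the FC of 2 as dashed lines. Eya1 and Eya2, Lhx1 and Lhx2, and Greb1l and Greb1 lie below the lower line, and Sall1, Sall4, Eya3 and Eya4 lie near 0.

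The rest of RET signalling was followed from the ligand inward. Gdnf, the main ligand, was low in both libraries, with an FPKM of 0.816 and 0.356 (log2 ratio -1.20, interval -1.87 to -0.57), and the other ligand genes Nrtn, Artn and Pspn did not reach the FPKM minimum either. Gfra1, the co-receptor for GDNF, was 3.04 and 3.05. Gfra2, the co-receptor for neurturin, fell from 5.07 to 1.95 (log2 ratio -1.38, interval -1.88 to -0.93). Of these 8 genes only 2, Gfra1 and Gfra2, reached the minimum, so most could not be called. Of the 2, 1 was lower and 0 higher, beside 8.39% and 6.73% of all genes. The rise of Ret therefore went with a level co-receptor and a ligand gene that was low and not higher.

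Of 13 genes for adaptors and enzymes downstream of RET, 12 reached the minimum, 2 were lower and 0 higher, or 16.7% past the cut-off beside 15.1% of all genes. Dok4, a docking protein of RET, fell from 15.4 to 3.61 (log2 ratio -2.09, interval -2.32 to -1.87), and Grb10, an imprinted adaptor, fell from 245 to 102 (-1.27). Grb2 was 32.0 and 31.9, and Shc1 was 51.3 and 34.8. Of 12 genes that respond to RET in the ureteric bud or restrain it, 11 reached the minimum, 2 were higher and 2 lower, or 36.4% past the cut-off beside the same 15.1%. Etv4, an ETS factor induced by GDNF and also by FGF, rose from 9.39 to 21.3 (log2 ratio 1.18, interval 1.04 to 1.33). Etv5 was 29.5 and 52.0, short of the cut-off. Wnt11, which sustains Gdnf in turn, fell from 6.18 to 2.76, and Sox9 from 6.08 to 2.91. The feedback inhibitor genes Spry1 (38.2 and 27.3) and Spry2 (38.0 and 33.6) and the phosphatase gene Dusp6 (43.3 and 36.1) did not pass the FC, and of the 12 genes 6 had a log2 ratio above 0 and 6 below.

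The genes that place the GDNF and RET domains had a median log2 ratio of -1.04, with 5 of the 8 that reached the minimum (62.5%) lower and 0 higher, beside 8.39% and 6.73% of all genes. Bmp4, which limits budding, fell from 43.7 to 12.4 (log2 ratio -1.82, interval -1.98 to -1.66). Gas1, a GFRA-like surface protein gene, fell from 18.3 to 5.18. Slit2 (19.4 to 9.32) and its receptor gene Robo2 (8.84 to 4.29) had intervals of -1.14 to -0.98 and -1.16 to -0.93, on both sides of the cut-off. Gata3, a regulator of Ret in the nephric duct, was 10.3 and 9.85.

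Partners of the members in the kidney came next. Of the 19 genes of nephron progenitors, 10 reached the minimum, 3 were lower, namely Eya2, Dach1 (3.81 to 1.01) and Bmp7 (12.4 to 4.30), and 0 were higher. All genes were lower in 8.39% and higher in 6.73%. Cited1, a marker of uncommitted nephron progenitors, was 22.7 and 12.3, short of the cut-off. Among 10 genes of intermediate mesoderm and nephric duct, Foxc1, a forkhead gene that also limits the Gdnf domain, fell from 3.92 to 1.68 (log2 ratio -1.23). Among 11 genes of nephron induction, Fgf8 fell from 18.3 to 0.807 (log2 ratio -4.50), Hnf4a from 4.33 to 0.0963 (-5.49) and Lgr5 from 2.35 to 0.266 (-3.14). Wnt4, the signal that turns progenitors into epithelium, was 9.73 and 4.98 (-0.97, interval -1.13 to -0.81), and Jag1, a Notch ligand gene, was higher at 24.1 in Diff–iKO, with an interval of 0.92 to 1.09 on both sides of the cut-off. Of the genes that reached the minimum, 3 of 4 in the duct list were lower, and 3 of 10 in the induction list were lower and 1 higher, beside the same shares of all genes.

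Of 18 genes of retinoic acid signalling, in which Greb1l acts, 16 reached the minimum, and 4 of these (25%) were lower, beside 8.39% of all genes, and 0 higher. The other 12 did not pass the FC. Rarb, a receptor gene that retinoic acid itself induces, fell from 8.23 to 1.84 (log2 ratio -2.16, interval -2.45 to -1.88). Cyp26a1, which breaks retinoic acid down and is also induced by it, fell from 26.6 to 2.65 (-3.33, interval -3.65 to -3.03). Crabp1 fell from 60.4 to 12.8 and Crabp2 from 38.0 to 9.65, both binding proteins of the cytoplasm. The receptor genes Rarg (24.0 and 29.7) and Rxrb (28.4 and 28.2) did not pass the FC, and the median of the list was -0.65.

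Counted once each, the genes of all pathway lists and paralogues numbered 152, of which 96 reached the FPKM minimum. Of these, 35 (36.5%) were lower and 4 (4.17%) higher, beside 8.39% and 6.73% of all genes, and the lists were chosen with earlier results of these libraries known. The marker genes of other cell types described below, chosen in the same way, were lower in 19 (37.3%) and higher in 14 (27.5%) of 51, so the share of lower genes is not particular to the pathway lists. Etv4, Jag1 and Nphs1 were among the higher genes.

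**Figure D3:**
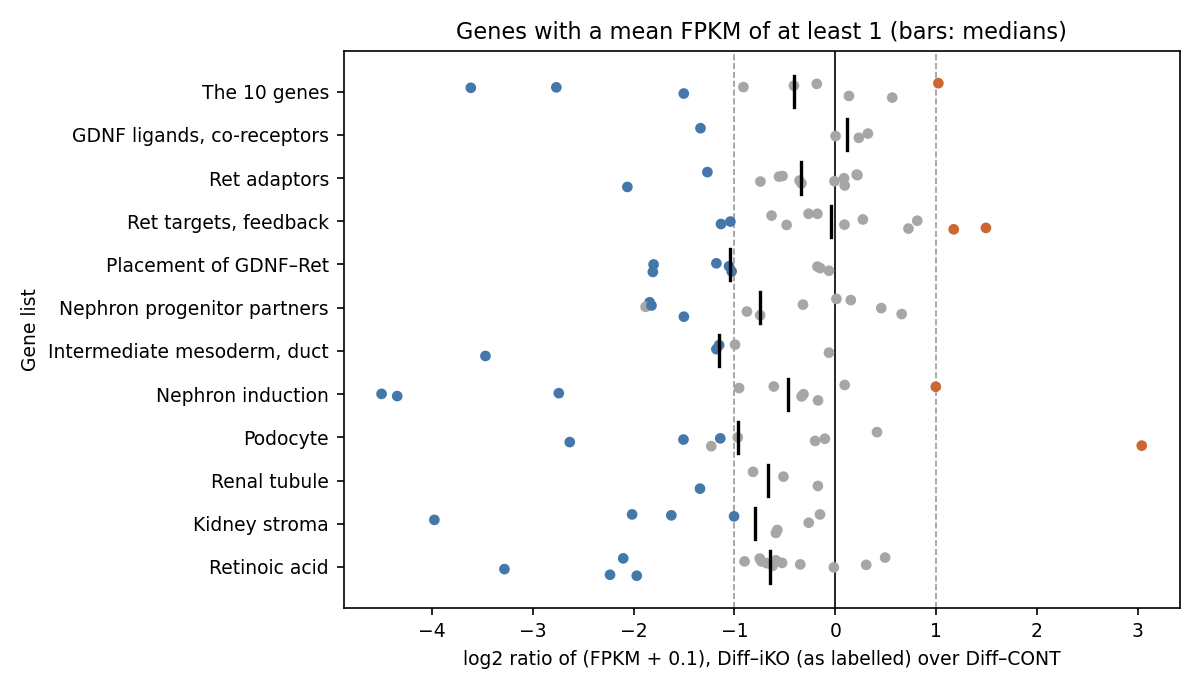
The log2 ratio of FPKM + 0.1, Diff–iKO (as labelled) over Diff–CONT, for genes in each list whose mean FPKM reached 1 (points, blue for lower and orange for higher past the cut-off, grey otherwise), with medians as bars and the FC of 2 as dashed lines. Marker lists of other cell types are not drawn. The medians drawn run from -1.15 for intermediate mesoderm and duct to 0.12 for GDNF ligands and co-receptors, and the 10 genes have a median of -0.41.

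The label of a kidney lineage was checked against differentiated kidney cells. Of 15 genes of the renal tubule, 11 were below an FPKM of 0.5 in both libraries. Umod and Slc34a1, defining genes of the thick ascending limb and the proximal tubule, were listed at 0 in both, and Slc12a1 and Aqp2 at 0 in Diff–CONT. The genes with clear values were Lrp2 (29.9 and 20.9), Cubn (7.35 to 2.84) and Aqp1 (6.60 and 3.71), and the first pair is also made by visceral endoderm. Of 12 podocyte genes, which lie downstream of Wt1 in the glomerulus, Podxl fell from 228 to 36.7 and Plce1 from 3.70 to 1.62. Of the 7 podocyte genes that reached the minimum, 3 were lower and 1 was higher. Nphs1, the nephrin gene, went the other way, from 1.31 to 11.5 (log2 ratio 3.13, interval 2.90 to 3.37). Podxl is also a surface protein of ESCs, endothelium and epithelia. Of the 7 kidney stroma genes that reached the minimum, 4 were lower and 0 higher, among them Pdgfra (19.1 to 4.65), Meis2 (27.7 to 8.90) and Tcf21 (3.49 to 0.128). Both counts stand beside 8.39% of all genes lower and 6.73% higher. These values do not identify differentiated kidney cells in either library, so the 10 genes are described by name and not as a kidney cell type.

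Markers of other cells that express the members were read beside these results. In bulk RNA, fewer cells of a type and less RNA per cell cannot be told apart. Of 10 genes of primitive streak, organizer and endoderm, where Lhx1 is also made, 8 reached the minimum, and 7 of these (87.5%) were lower and 0 higher past the cut-off, beside 8.39% and 6.73% of all genes. The summed FPKM of the list was 71.1 in Diff–CONT and 25.3 in Diff–iKO. Sox17 (5.36 to 0.317), Cer1 (3.23 to 0.258) and Foxa2 (13.8 to 4.19) fell with Lhx1 and Hnf4a. Of 8 genes of undifferentiated ESCs, where Sall1 and Sall4 are made, all 8 reached the minimum and 6 were higher and 0 lower, with a sum of 424 and 2619. Most of it was Dppa5a (258 and 2115), and without it the sum was 166 and 503, 3.04-fold higher in Diff–iKO. Pou5f1 rose from 60.8 to 247, Nanog from 19.5 to 81.2 and Esrrb from 7.10 to 42.0.

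For mesothelium and epicardium, where Wt1 is made, 3 of the 7 genes that reached the minimum were lower and 1 was higher. The sum was 158 and 143, of which Krt19, a keratin of many epithelia, gave 119 and 120, and the rest gave 38.9 and 22.1. Upk3b (2.30 to 0.169), Lrrn4 (22.4 to 8.88) and Tcf21 were lower, and Msln was higher (2.75 to 5.52). For neural crest, where Ret is made, 3 of the 7 that reached it were lower and 2 were higher. The sum was 37.8 and 28.2, with Sox10 at 0.817 and 0.0706, Ngfr and Foxd3 higher, and Hand2 and Tfap2a among the lower genes. For midbrain and hindbrain, where Pax2 and Pax8 are made, the sum was 78.8 and 66.3, and 18.6 and 21.3 without Tubb3, a gene of all neurons, so its direction rests on that gene. Of the 7 genes that reached the minimum, only Gbx2 passed the cut-off (0.996 to 4.14). For mesenchyme of limb and head, where Osr1, Six2 and Eya1 are also made, 3 of the 6 that reached it were lower, Msx1 and Prrx1 among them, with a sum of 86.0 and 49.6. The gonad list had 1 of 2 such genes lower, Gata4 (20.1 to 2.56), and Nr5a1, its defining gene, was 0.0121 and 0.0808. None of the 5 thyroid genes reached the FPKM minimum. In the trophoblast list 4 of the 6 genes that reached it were higher and 2 lower. The sum was 123 and 151, or 83.4 and 64.8 without Krt7. Hand1, 1 of the 2 lower genes, gave 70.8 and 31.3 of the latter, so the direction of the sum depends on single genes. Leaving out the highest gene of a list was chosen after seeing the data. These counts too stand beside 8.39% of all genes lower and 6.73% higher. The part of these cell types in the values of the 10 genes was not tested.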

How the data were processed

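Poly(A) RNA of 1 Diff–CONT and 1 Diff–iKO culture was sequenced as paired-end reads from a stranded mRNA kit, with 1 µg of total RNA per library. The authors deposited FPKM values, for which the labels name STAR (2.7.9a), Cuffnorm, Cufflinks (2.2.1) and mm10. The gene annotation and strand setting are not given in the sources used here, so overlapping genes are uncertain. Both columns were matched to the libraries by name, and 0 other columns of values were present. The members and the gene lists were chosen with earlier results of these data known.

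The log2 ratio of FPKM, Diff–iKO over Diff–CONT, was taken without a pseudocount, and list medians with a pseudocount of 0.1 over genes whose mean FPKM reached 1. A gene was past the cut-off at FC ≥ 2 with FPKM ≥ 2 in either library. No test was possible without replicates.

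Fragments were recovered from FPKM steps, fitted in 9773 genes that have a single RefSeq transcript, 1000 nucleotides or longer. Of the low values, up to 8 fragments, 84.7% in Diff–CONT and 83.7% in Diff–iKO lay within 0.2 of a whole multiple, against 40% by chance. The fragments of a gene were computed with its shortest RefSeq transcript. Intervals are exact at 95% and cover counting error only. The steps were tested on simulated data. Coordinates are from GENCODE vM21.

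Named genes were all members, genes of each list past the cut-off, the 2 genes with the highest mean FPKM per list, the highest paralogue per family and the nearest gene with FPKM ≥ 2 on each side of a member. Not all are printed, some genes of the lists are counted but not reported here, and others were named after their values were seen. The alternatives were other fold, FPKM and pseudocount settings and 3 scalings. Software was matplotlib 3.10.9, scipy 1.17.1, numpy 2.4.6, pandas 2.3.3 and Python 3.11.15.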

Additional observations from a re-analysis of the deposited data

How the results depend on the processing

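With 1 library per condition, no replicate could be left out, and no paired analysis was possible because each condition has 1 sample. The count of 3 lower members was between 2 and 4 in all alternatives except an FPKM minimum of 5, which left 1 gene, Greb1l. The count of 1 higher member became 0 with an FC of 4, an FPKM minimum of 5, a pseudocount of 1, equal FPKM sums and equal upper quartiles. The median of the members (-0.41) was -1.31 at a mean FPKM minimum of 5, which only Sall1 and Greb1l reach, and lay between -0.63 and -0.28 in the other alternatives. No member's log2 ratio changed sign in 50 alternative values, and 5 of them left the counting interval, 4 with a pseudocount of 1. Of 83 list medians under alternatives, 11 moved, with no change of sign among them. That of intermediate mesoderm and duct (-1.15) became -0.61 at a mean FPKM minimum of 5, and that of the podocyte genes (-0.97) became -0.10. Depth limits Lhx1 in Diff–iKO (24 fragments) and Six2 (22 fragments) most. The cause of these changes was not tested.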

Other observations

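The chromosomal neighbours of the members were also read. The nearest gene with FPKM of at least 2 in at least 1 library on each side gave 20 genes, of which 2 were higher and 1 lower past the cut-off, 15.0% beside 15.1% of all genes. Msc, a bHLH factor gene of muscle and lymphoid cells 443111 bp from Eya1, rose from 0.392 to 5.04 (log2 ratio 3.68). Psd4, 5606 bp from Pax8, rose from 0.800 to 3.14 (1.97), and Tox3, more than 1 Mb from Sall1, fell from 6.50 to 1.44 (-2.18). The genes beside Greb1l did not follow it, since Esco1, 3567 bp away, was 6.43 and 11.2 and Rock1 was 17.2 and 18.1. Csgalnact2, 12605 bp from Ret, was 4.28 and 6.69 (0.64).

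Of the 56 pathway and paralogue genes below the FPKM minimum, 37 had a lower value in Diff–iKO, 15 a higher one and 4 an equal one. The share over all genes below the minimum was not computed, so this count is not a result about the lists. Some of the values rest on few fragments, such as Hoxc11 with 3 in Diff–CONT and 0 in Diff–iKO. The genes named here were chosen after their values were seen. Wnt9b, the ureteric bud signal that acts on Six2-positive progenitors, was 1.78 and 0.0515 (log2 ratio -5.11, interval -6.75 to -3.87). Cyp26c1, a further gene of retinoic acid breakdown, was 1.73 and 0.0325. Uncx, a homeobox gene of kidney mesenchyme and somites, was 0.803 and 0.164, and Meox1 was 1.73 and 0.397. In the other direction, Sall3 was 0.999 and 1.78, Emx2 0.400 and 0.777, and Gfra3 0.166 and 0.494.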
